A study of Mus musculus with 16 samples.

Results

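The genes of the cytosolic ribosomal proteins are described here in RNA sequencing libraries of tracer-labelled cells sorted from mouse dorsal root ganglia. They were taken by symbol, as every gene of the count tables named Rpl or Rps with a number, together with Rplp0, Rplp1, Rplp2 and Rpsa. This gave 84 genes of 22609, of which 51 are named for the large subunit and 33 for the small subunit. Among the 33 is Rps4y2, which RefSeq now lists as a transcribed pseudogene. All 84 were looked up, and 79 passed the filter on low counts and were tested. Among the other 5, Rpl10l and Rpl26 had no count in any library, while Rps23 and Rpl39l had 3 and 11 counts in all.

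All libraries came from male mice aged 8 to 16 weeks in which Ltbr, which encodes the lymphotoxin beta receptor, was floxed. The 4 groups of 4 libraries were PTX CKO, PTX fl/fl, vehicle CKO and vehicle fl/fl. CKO libraries came from mice that also carried Nav1.8-Cre, a recombinase driven by the promoter of a sodium channel of nociceptors, and fl/fl libraries from mice with the floxed alleles alone. PTX is paclitaxel, a microtubule-stabilising chemotherapy drug, given into the peritoneum 3 times, 2 days apart, at 6 mg per kg. A fluorescent wheat germ agglutinin was injected into the paw 16 days after the last injection. Lumbar ganglia were taken at 18 days and cells that held the tracer were sorted. The treatment text of every library describes PTX, so the vehicle libraries are those whose treatment label is water. The design text gives 3 per group where the labels hold 4, and no label ties the 4 to different animals. The p-values below therefore rest on library-to-library spread, part of which may be technical.

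A ribosome has a small subunit, which reads the messenger RNA, and a large subunit, which joins the amino acids. The proteins of both surround ribosomal RNA and are needed in nearly equal numbers, and their messenger RNAs are usually among the most abundant of a cell. Many of these messages begin with a run of pyrimidines, through which mTOR signalling governs their translation. In sensory neurons, messages of ribosomal proteins are also carried into axons. Mammalian genomes hold a very large number of processed pseudogenes copied from these messages, and a short read that matches several places equally well is usually not counted for a gene.

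Libraries held 7906504 to 11668007 gene counts, and 39.5 to 44.2% of all alignments were listed as not unique. Levels are given as CPM, the counts of a gene scaled to each library's effective size. The protocol in the labels calls the sorted cells neurons. Marker sums are given as a percentage of the effective size, which was 0.827 to 1.16 times the gene counts of a library. A list of 10 sensory neuron markers held 0.937 to 1.76% in PTX fl/fl libraries and 0.669 to 1.72% in PTX CKO libraries. In vehicle fl/fl libraries it held 0.0869 to 0.444% and in vehicle CKO libraries 0.103 to 0.287%, with none of the 10 at 0. A list of 8 neutrophil markers held 0.523 to 9.97% and 0.0261 to 11.2% in PTX fl/fl and PTX CKO libraries, against 7.63 to 20.4% and 6.90 to 22.5% in vehicle fl/fl and vehicle CKO libraries. The 7 satellite glia markers held 0.447 to 1.496% and 0.947 to 2.47% in PTX fl/fl and PTX CKO libraries, against 2.52 to 3.57% and 1.13 to 3.16% in vehicle fl/fl and vehicle CKO libraries. The 6 Schwann cell markers held 0.150 to 0.279% and 0.181 to 0.250%, against 0.543 to 0.797% and 0.616 to 0.810%, in the same order of groups. Macrophage (7 genes) and fibroblast (6 genes) markers averaged 0.0129 and 0.0157% in PTX fl/fl and 0.0185 and 0.0277% in PTX CKO libraries, against 0.133 and 0.166% in vehicle fl/fl and 0.0981 and 0.121% in vehicle CKO libraries. The part of this shift in cell markers in the ribosomal protein values below was not tested, and in such bulk libraries fewer cells of a type and less RNA per cell cannot be told apart. The PTX libraries carry September title dates (the days 24 and 25) and the vehicle libraries October dates (the days 1 and 2), so treatment and date cannot be told apart. Ltbr, the targeted gene, stood at 23.3, 5.88, 19.5 and 28.4 CPM in the PTX libraries labelled CKO, against 6.06, 8.61, 12.2 and 15.6 CPM in those labelled fl/fl. In the vehicle libraries it stood at 99.0, 54.3, 33.1 and 32.3 CPM under the CKO label, against 42.4, 51.4, 48.3 and 46.8 CPM under the fl/fl label. The targeted gene was therefore not lower under the CKO label, the floxed exons are not named, and every genotype direction below rests on the labels.

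The stretches of coding sequence that follow were picked as extremes and do not stand for their whole genes. The first 3 are the stretches of their gene with the most exact matches in other genes. The next 3 are those with the fewest matches within 2 mismatches. All were taken from GENCODE vM21 transcripts (GRCm38), which is another build than that of the counts (mm9). Each is as long as a read, 50 bases, within 1 coding exon. Letter case carries no meaning in these stretches. In the first 3, from genes with few or no counts, every base is shared with annotated copies. The Rpl26 stretch (chr11:68902353-68902402, plus strand, exon 2) is identical in 6 other genes, the Rps23 stretch (chr13:90924396-90924445, plus strand, exon 3) in 11, and the Rps28 stretch (chr17:33823277-33823326, minus strand, exon 3) in 5.
Rpl26: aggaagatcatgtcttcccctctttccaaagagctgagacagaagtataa
Rps23: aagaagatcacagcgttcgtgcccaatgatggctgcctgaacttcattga
Rps28: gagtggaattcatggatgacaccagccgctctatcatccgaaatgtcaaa
The next 3, from genes with high counts, have no match in another annotated gene within 2 mismatches. They are exon 2 of Rpl4 (chr9:64174921-64174970, plus strand), of Rps3 (chr7:99482651-99482700, minus strand) and of Rpl8 (chr15:76904313-76904362, plus strand).
Rpl4: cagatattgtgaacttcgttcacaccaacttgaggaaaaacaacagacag
Rps3: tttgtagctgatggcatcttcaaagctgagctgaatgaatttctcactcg
Rpl8: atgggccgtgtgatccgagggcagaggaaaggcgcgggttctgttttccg

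Over the whole coding sequence, the median ribosomal protein gene shared 90.3% of its 50-base stretches exactly with another annotated gene, mostly a pseudogene. The same median was 0% for 77 mitochondrial ribosomal protein genes, 15.1% for a list of 12 elongation genes and 0.021% for a list of 42 initiation genes. Beside the factors themselves, the elongation list holds Eef2k, Eef1e1 and Tpt1, and the initiation list Eif4ebp1, Eif4ebp2, Larp1 and Pabpc1. In 29 of the 84 genes every stretch was shared exactly, and in 62 every stretch lay within 2 mismatches of another gene. The number of annotated genes with a shared stretch reached 123 for Rpl7a, 84 for Rpl29 and 82 for Rpl21. Among the abundant genes the share varied, from 8.09% of the stretches in Rps3 and 8.73% in Rpl8 to 20.3% in Rpl4 and 43.0% in Rps9. It reached 51.7% in Rps14 and 60.3% in Rplp0, and 99.9% of the Rplp0 stretches lay within 2 mismatches of another gene. By that looser measure the share was 9.70% in Rpl8, 43.1% in Rps3, 77.4% in Rpl4, 80.7% in Rps9 and 95.8% in Rps14.

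Levels per kb of coding sequence tended to be low where 75% or more of the stretches were shared. The 29 genes with every stretch shared had a median level of 4.48 CPM per kb and held 5.18% of all counts of the 84 genes. The 39 genes that shared 50% or more, but not all, had a median of 33.5 CPM per kb and 36.7% of the counts. The 16 genes that shared less than 50% had a median of 153 CPM per kb and 58.2% of the counts. Split at 25, 50 and 75% shared, the medians from least to most shared were 55.1, 160, 160 and 10.6 CPM per kb. The level therefore did not fall steadily with sharing. Across the 84 genes the Spearman correlation of level per kb with the share of shared stretches was -0.58, and it lay between -0.60 and -0.54 in the 16 libraries. Without Rpl10l, Rpl39l and Rpl3l, which in mammals are copies expressed mainly in testis or muscle, it was -0.75 over 81 genes. These correlations are across genes, which share libraries and are not replicates, and they describe the counts without a test. Alignments listed as not unique are not assigned to genes in the files, so the part of lost reads in these levels was not tested. Rpl41 stood outside the pattern, at 568 CPM per kb with every stretch shared, but its coding sequence is only 75 bases long. The median level of the 84 genes, 16.7 CPM per kb, was below the 55.3 CPM per kb of the mitochondrial ribosomal protein genes.

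**Figure D1:**
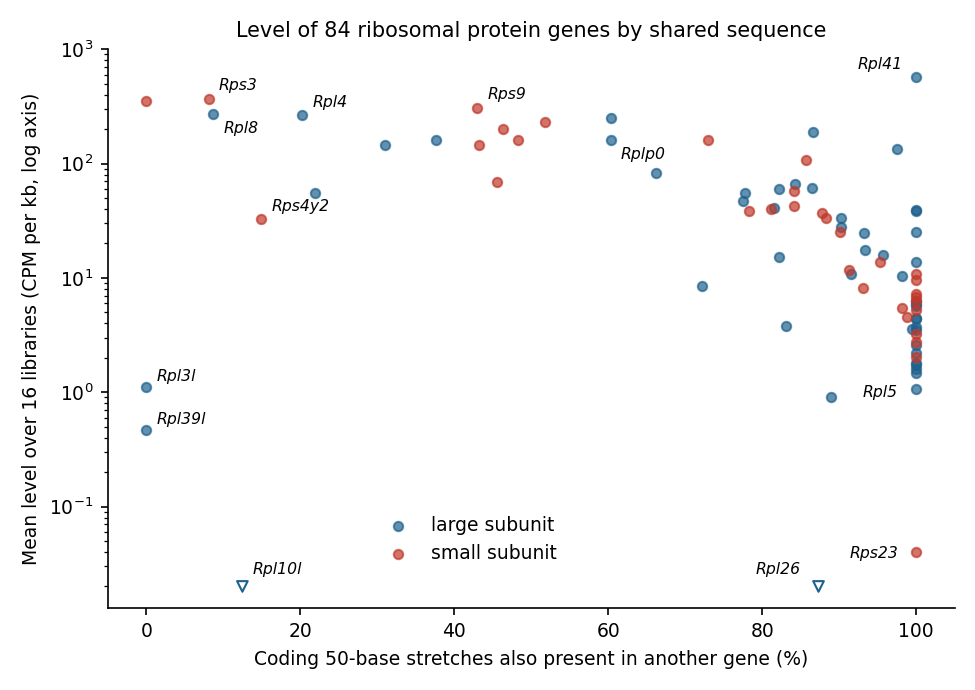
Mean level over 16 libraries (CPM per kb of coding sequence, log axis) against the percentage of coding 50-base stretches found exactly in another annotated gene, 1 point for each of the 84 genes, with large-subunit genes in blue and small-subunit genes in red. Open triangles at the bottom mark Rpl10l and Rpl26, which had no counts and lie at 0. Rps3, Rpl8 and Rpl4 share less than 25% of their stretches exactly and stand between 266 and 369 CPM per kb. Most genes with every stretch shared lie under 10.

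The 84 genes together held 443800 of 158845446 gene counts, and 0.185 to 0.371% of the gene counts of a library. A few genes carried most of this. Rpl4, which lines the exit tunnel of the large subunit, held 12% of the counts of the 84 genes, the first 6 genes 48.8% and the first 20 genes 79.3%. Among the most abundant were Rpl4 (334 CPM on average over the 16 libraries), Rps3 (269 CPM), Rpl8 (210 CPM), Rps9 (180 CPM) and Rplp0 (153 CPM). Of all 84, 7 genes stood at 100 CPM or more. At 10 CPM or more there were 42 genes, with 30 between 1 and 10 CPM and 12 below 1 CPM. Among the least abundant were Rpl10l and Rpl26 (0 CPM), Rps23 (0.0171 CPM), Rpl39l (0.0716 CPM), and Rps28 (0.670 CPM). A count of 0 allows up to 0.247 to 0.384 CPM in a library at these depths, counting error only, and Rpl26 shares 87.3% of its stretches with other genes, so its 0 cannot tell an unexpressed gene from reads that were not counted.

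In fl/fl libraries, no ribosomal protein gene passed the test between PTX and vehicle, yet most stood lower after PTX. By edgeR's quasi-likelihood test with an adjusted p under 0.05, 0 of the 79 genes tested were called, where 4.96% of all 14200 genes tested were (3.2% higher and 1.76% lower). At an unadjusted p under 0.05 the count was 3 of 79, against 19.5% of all genes. The log2 difference (PTX minus vehicle) was negative in 65 of the 79 genes, with a median of -0.37 against -0.01 over all genes. The median was -0.42 for 32 small-subunit genes and -0.31 for 47 large-subunit genes. Groups did not overlap, with all 4 PTX libraries below all 4 vehicle libraries, in 18 genes (22.8% of the 79, against 7.8% of all genes). All 4 stood above in 1 gene, Rps4y2 (1.27%, against 11% of all genes). Among the 18 were the 3 with the lowest p, Rplp0, Rps14 and Rps3, and, of the large subunit, Rpl7, Rpl13a, Rpl18, Rpl39 and Rpl41. These counts are of CPM, after scaling for library composition. As plain shares of gene counts, the groups overlapped for Rpl7, Rpl18 and Rpl39. The 95% interval of the difference lay within 1 log2 unit on either side of 0 in only 12 genes, all at 10 CPM or more.

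The summed level of the 84 genes did not overlap between these groups after scaling for library composition. It was 2798, 2614, 2554 and 2341 CPM in the 4 PTX fl/fl libraries, against 3359, 3267, 3164 and 3414 CPM in the vehicle fl/fl libraries. The means were 2577 ± 188 CPM in PTX fl/fl and 3301 ± 110 CPM in vehicle fl/fl libraries (SD, n = 4 each). In the CKO libraries the sum ran from 1742 to 2984 CPM with PTX and from 2572 to 3013 CPM with vehicle, so the groups overlapped. Before that scaling the groups overlapped, with 0.250 to 0.289% of gene counts in PTX fl/fl and 0.280 to 0.371% in vehicle fl/fl libraries. The share of gene counts was 0.268 ± 0.017% in PTX fl/fl and 0.320 ± 0.042% in vehicle fl/fl libraries, and 0.258 ± 0.057% in PTX CKO and 0.264 ± 0.041% in vehicle CKO libraries (SD, n = 4 each).

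**Figure D2:**
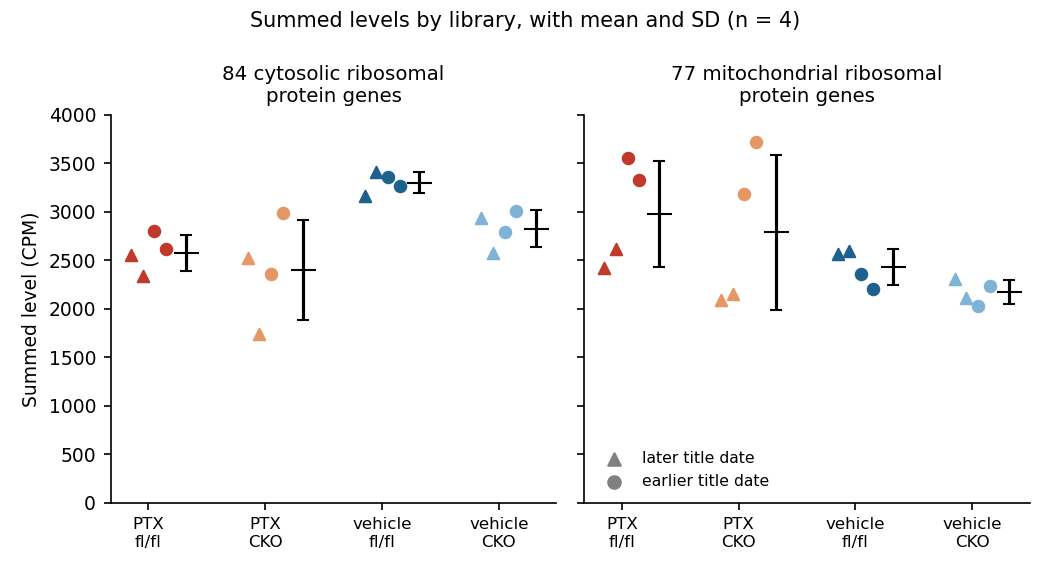
Summed level (CPM) of 84 cytosolic (left) and 77 mitochondrial (right) ribosomal protein genes in each library, by group, with triangles for the later and circles for the earlier title date of each treatment, and black bars for the mean ± SD of 4 libraries. The cytosolic sum lies at 2341 to 2798 CPM in PTX fl/fl libraries, below the 3164 to 3414 CPM of vehicle fl/fl libraries. The mitochondrial sum is highest in the 4 PTX libraries of the earlier date.

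Rplp0, the base of the stalk through which the large subunit recruits elongation factors, came nearest to the threshold in fl/fl libraries. It stood at 113, 126, 119 and 88.2 CPM in PTX fl/fl libraries, against 241, 215, 169 and 215 CPM in vehicle fl/fl libraries. Every PTX library was below every vehicle library, and the log2 difference was -0.91 ± 0.26 (SE; 95% interval -1.47 to -0.35; edgeR adjusted p = 0.0576). Its partners on the stalk are Rplp1 and Rplp2. Rplp2 stood at 22.8, 25.0, 21.5 and 27.2 CPM in PTX fl/fl libraries, against 37.8, 33.7, 42.7 and 35.4 CPM in vehicle fl/fl libraries. Its groups did not overlap in CPM but did as plain shares of gene counts. The log2 difference of Rplp2 was -0.63 ± 0.39 (edgeR adjusted p = 0.408). For Rplp1 the groups overlapped and the log2 difference was -0.25 ± 0.28. In CKO libraries Rplp0 stood at 120, 126, 166 and 80.7 CPM with PTX, against 140, 233, 161 and 143 CPM with vehicle. The ranges overlapped there and the log2 difference was -0.46 ± 0.26 (edgeR adjusted p = 0.356).

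On the small subunit, Rps14 and Rps3 followed in fl/fl libraries. Rps14, which helps to form the platform of the subunit, stood at 92.9, 92.0, 90.3 and 87.6 CPM with PTX, against 153, 147, 115 and 146 CPM with vehicle. The 4 PTX values lay close together and below all vehicle values, with a log2 difference of -0.63 ± 0.26 (edgeR adjusted p = 0.190). Rps3, also at the channel where messenger RNA enters, stood at 261, 236, 229 and 224 CPM with PTX, against 396, 333, 277 and 346 CPM with vehicle, again without overlap (log2 difference -0.51 ± 0.25, edgeR adjusted p = 0.271). The 2 most extreme low values among all 79 genes, Rpl23a at -3.15 ± 1.64 and Rpl3l at -1.79 ± 2.31, came from genes near 1 CPM. The 95% intervals of both included 0. Rpl4, the most abundant gene, stood at 325, 305, 303 and 320 CPM with PTX, against 357, 317, 372 and 406 CPM with vehicle. Its groups overlapped, and its log2 difference of -0.21 ± 0.20 had a 95% interval of -0.64 to 0.21.

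**Figure D3:**
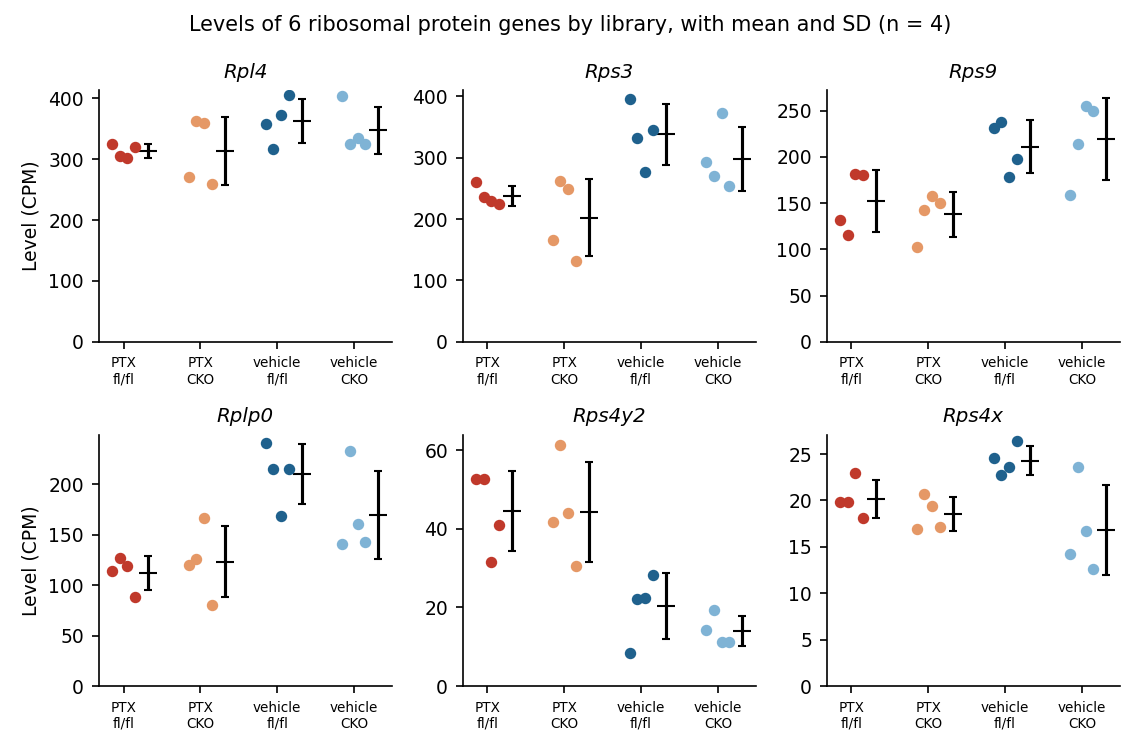
Levels (CPM) of 6 ribosomal protein genes in each library, by group, with black bars for the mean ± SD of 4 libraries. Rplp0 and Rps3 lie lower in all PTX fl/fl than in all vehicle fl/fl libraries, Rps9 lies lower in all PTX CKO than in all vehicle CKO libraries, and Rps4y2 lies higher in all PTX than in all vehicle libraries of both genotypes.

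In CKO libraries the lean towards lower values after PTX was smaller. Here too 0 of 79 genes were called by edgeR, where 2.58% of all genes were (2.22% higher and 0.359% lower), and 3 reached an unadjusted p under 0.05, against 19.7% of all genes. The log2 difference was negative in 50 of 79 genes, with a median of -0.18 against 0.02 over all genes. With total gene counts alone as the scale, the median of the 79 genes was 0.04 and that of all genes 0.22, so the 79 genes stood below all genes under both scalings. All 4 PTX libraries stood below all 4 vehicle libraries in 3 genes, Rps9, Rps13 and Rpl12 (3.8%, against 4.54% of all genes). All 4 stood above in 1 gene, again Rps4y2 (1.27%, against 8.91% of all genes). Rps9, a small-subunit protein at the entry of the messenger RNA channel, stood at 102, 142, 157 and 150 CPM with PTX, against 158, 214, 255 and 249 CPM with vehicle. Its lowest vehicle value was just above its highest PTX value, and the log2 difference was -0.67 ± 0.25 (95% interval -1.19 to -0.14; edgeR adjusted p = 0.150). Rps3 followed (-0.56 ± 0.25, edgeR adjusted p = 0.218), and its groups overlapped.

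The difference between the PTX effects in CKO and in fl/fl was tested as an interaction. None of the 79 genes passed by edgeR, where 0.00704% of all genes did, nor did any reach an unadjusted p under 0.05, against 3.35% of all genes. The median interaction of the 79 genes was 0.16 on the log2 scale, against 0.03 over all genes, and 54 of 79 values were positive. The standard error of this difference had a median of 0.86 over the 79 genes. For Rplp0 it was 0.45 ± 0.37, so its values in the 2 genotypes were not shown to differ.

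The gene listed as Rps4y2 was among the minority of members with positive values, 14 of 79 with PTX in fl/fl and 29 of 79 in CKO libraries. In CKO libraries Rpl27 (2.06 ± 1.34) and Rpl36a (1.68 ± 1.22) had higher log2 differences, from few counts and with overlapping groups. RefSeq now lists it as Rps4l, a transcribed pseudogene on chromosome 6 that is related to Rps4x, the X-linked gene of small-subunit protein S4. The stretches below are those where the pair is closest among stretches that differ at more than 2 bases, and capitals mark the 3 bases that differ (Rps4y2, chr6:148355421-148355470, plus strand, exon 1; Rps4x, chrX:102185061-102185110, minus strand, exon 7; GRCm38).
Rps4y2: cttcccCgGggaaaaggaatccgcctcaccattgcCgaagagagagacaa
Rps4x: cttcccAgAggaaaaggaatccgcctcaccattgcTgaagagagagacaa
Of 492 such stretches of Rps4x within 1 exon, 0 were identical in Rps4y2 and 485 differed from it at more than 2 bases, so most reads could be told apart. Rps4x shared 90.1% of its stretches with other genes, against 14.9% for Rps4y2. As Rps4y2 has no annotated coding sequence, its share and its level per kb were taken over the whole transcript.

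In CKO libraries Rps4y2 stood at 41.7, 61.3, 44.0 and 30.4 CPM with PTX, against 14.1, 19.3, 11.3 and 11.3 CPM with vehicle. The lowest PTX value was above the highest vehicle value, and the log2 difference was 1.67 ± 0.44 (95% interval 0.73 to 2.60; edgeR adjusted p = 0.0533). In fl/fl libraries it stood at 52.8, 52.6, 31.7 and 41.0 CPM with PTX, against 8.41, 22.2, 22.3 and 28.4 CPM with vehicle, also without overlap, and the log2 difference was 1.13 ± 0.43 (edgeR adjusted p = 0.156). For Rps4x the log2 difference was 0.14 ± 0.44 in CKO and -0.27 ± 0.44 in fl/fl libraries. The ratio of Rps4y2 counts to Rps4x counts was 1.38 to 2.96 over the 8 PTX libraries and 0.342 to 1.08 over the 8 vehicle libraries. Both Rps4y2 and Rplp0 changed sides of the threshold with the method, as DESeq2 called Rplp0 in fl/fl and Rps4y2 in CKO. Limma-voom called 8 of the 79 ribosomal protein genes in fl/fl and 2 in CKO, against 5283 and 2686 of all 14200 genes. DESeq2 called 2 of the 79 in each, against 1517 and 1341 of all genes. The edgeR call of Rps4y2 in CKO was made without PTX CKO replicate 4 or without vehicle fl/fl replicate 1, and that of Rplp0 in fl/fl without PTX CKO replicate 4 or without vehicle CKO replicate 2.

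Pairs of related genes were set side by side in the same libraries. Rpl22l1 and Rpl22 are related large-subunit genes whose products are known to regulate each other. The ratio of their counts was 0.353, 0.367, 0.497 and 1.03 in PTX fl/fl libraries and 0.400, 0.543, 0.289 and 1.13 in PTX CKO libraries, against 0.376, 0.275, 0.423 and 0.516 in vehicle fl/fl and 0.404, 0.258, 0.299 and 0.605 in vehicle CKO libraries. Replicate 4 of both PTX groups were the only libraries in which Rpl22l1 exceeded Rpl22. The log2 difference of Rpl22 was 0.02 ± 0.39 in fl/fl and -0.24 ± 0.39 in CKO, and that of Rpl22l1 was 0.25 ± 0.43 and 0.33 ± 0.44, none of them called. Rps27l, a p53 target related to Rps27, had a mean of 40.9 CPM, against 2.41 CPM for Rps27. Rps27 shared 100% of its stretches with other genes and Rps27l 48.3%. Rpl7l1 and Rpl7 had means of 40.7 and 38.1 CPM, and in both PTX comparisons neither was called. Rpl3l, a form of skeletal and heart muscle, had counts in 7 libraries, 1 of each PTX group, 2 of vehicle fl/fl and 3 of vehicle CKO. Its relative Rpl3 had a mean of 19.4 CPM. Rpl39 had a mean of 28.7 CPM, while Rpl39l had counts in 1 library. Rpl10 had a mean of 4.05 CPM and Rpl10l had no counts.

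Rpl5, Rpl11 and Rpl23 bind Mdm2, and through it stabilise p53, when ribosome assembly is disturbed. Rpl5 and Rpl11 share every coding stretch with other genes, and their means were 0.949 and 0.931 CPM from 152 and 145 counts over the 16 libraries. Their log2 differences with PTX in fl/fl, -1.21 ± 1.15 and -0.55 ± 1.25, have intervals too wide to read. Rpl23 had a mean of 25.6 CPM. Its groups overlapped, at 25.8, 29.0, 31.97 and 15.1 CPM in PTX fl/fl libraries, against 26.4, 27.4, 26.9 and 27.2 CPM in vehicle fl/fl libraries (log2 difference -0.08 ± 0.41).

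Between the genotype labels, no ribosomal protein gene was called. Under PTX, 0 of 79 genes passed by edgeR, as did 0% of all genes, and 0 reached an unadjusted p under 0.05, against 1.87% of all genes. The median log2 difference (CKO minus fl/fl) was -0.07, against -0.04 over all genes. Groups did not overlap in 1 gene that was higher in CKO libraries, Rpl18 (1.27%, against 0.69% of all genes), and in 1 that was lower, Rpl3 (1.27%, against 1.37%). Rpl18 stood at 16.7, 19.5, 17.9 and 18.0 CPM in PTX CKO libraries, against 15.4, 14.8, 14.7 and 15.3 CPM in PTX fl/fl libraries, a log2 difference of 0.26 ± 0.44.

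Under vehicle the CKO libraries leaned lower. No gene was called by edgeR, where 0.0211% of all genes were, and 1 of 79 reached an unadjusted p under 0.05, against 4.61% of all genes. That gene was Rpl32, at 56.2, 67.0, 46.3 and 58.5 CPM in vehicle CKO libraries, against 86.2, 92.6, 60.8 and 95.5 CPM in vehicle fl/fl libraries, with overlap and a log2 difference of -0.56 ± 0.26 (edgeR adjusted p = 1). Of the 79 log2 differences 63 were negative, with a median of -0.31 against -0.02 over all genes. All 4 CKO libraries stood below all 4 fl/fl libraries in 11 genes (13.9%, against 1.68% of all genes) and above in 0 (against 0.81%). Among the 11 were Rpl6, Rpl13a, Rpl23a, Rpl39, Rpl41 and Rplp2 of the large subunit and Rps15, Rps18 and Rps21 of the small subunit. These counts too are of CPM, after scaling for library composition. As plain shares of gene counts, the groups overlapped for Rpl39, Rplp2, Rps15 and Rps18, but not for Rpl6, Rpl13a, Rpl23a, Rpl41 and Rps21. The summed share of all ribosomal protein genes overlapped as well. Rpl13a stood at 79.9, 77.7, 71.7 and 73.6 CPM in vehicle CKO libraries, against 105, 107, 106 and 112 CPM in vehicle fl/fl libraries, a log2 difference of -0.50 ± 0.26. The comparison of PTX with vehicle in fl/fl used the same vehicle fl/fl libraries. Rpl13a stood at 83.2, 68.7, 75.8 and 75.7 CPM in PTX fl/fl and at 63.9, 92.3, 62.1 and 40.7 CPM in PTX CKO libraries, so the vehicle fl/fl libraries were the highest of the 4 groups for it.

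Title dates were compared within each treatment. In PTX libraries, 0 of 79 ribosomal protein genes were called by edgeR between the later and the earlier date, where 7.4% of all genes were (6.21% higher and 1.19% lower). At an unadjusted p under 0.05 the count was 3, against 18.4% of all genes. The median log2 difference (later minus earlier) was -0.27, against -0.15 over all genes. The summed level averaged 2291 CPM (1742 to 2554) on the later date and 2688 CPM (2355 to 2984) on the earlier date, 4 libraries each. Cell markers moved with these dates. All 8 neutrophil markers were called higher on the later date (median log2 difference 5.24), as were 4 of 7 macrophage markers (median 3.37), and 3 of 10 neuron markers were called lower (median -0.92), and their part in the ribosomal protein values was not tested. Rpl22 had the lowest p among negative values, at 45.2 and 27.1 CPM (fl/fl) and 53.2 and 31.0 CPM (CKO) on the later date, against 79.8 and 73.7 CPM (fl/fl) and 60.7 and 59.1 CPM (CKO) on the earlier date. All 4 later libraries were below all 4 earlier ones, and the log2 difference was -0.80 ± 0.34 (edgeR adjusted p = 0.211). In vehicle libraries 0 of 79 genes were called by edgeR, where 0.0493% of all genes were, and 0 reached an unadjusted p under 0.05, against 6.3% of all genes. The summed level averaged 3021 CPM on the later and 3107 CPM on the earlier date.

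Other genes of translation were taken from lists chosen with earlier results of these data known. With PTX the medians of the mitochondrial, initiation, assembly and elongation lists were above 0 in both genotypes, on the other side from the cytosolic ribosomal protein genes, whereas between the PTX dates all 4 medians were below 0, as theirs was. Under vehicle the elongation list had a median of -0.31 between CKO and fl/fl libraries, with 9 of 11 values negative. Of 76 mitochondrial ribosomal protein genes tested, 58 had a positive log2 difference with PTX in fl/fl (median 0.36, 0 called) and 62 in CKO libraries (median 0.40, 1 called). In this and the other lists, the few genes that rose stand beside 3.2% of all genes called higher with PTX in fl/fl and 2.22% in CKO libraries, and nothing particular to a list is read from them. The 1 that rose was Mrpl19 in CKO, at 62.4, 38.6, 24.5 and 41.0 CPM with PTX, against 8.64, 0.332, 6.78 and 5.94 CPM with vehicle (log2 difference 2.94 ± 0.72, edgeR adjusted p = 0.0401). In PTX libraries this list had a median of -0.68 between the later and the earlier date, with 71 of 76 values negative and 0 called, against a median of -0.15 over all genes, of which 55.9% were negative and 7.4% called. Of 42 genes of the initiation list, 1 rose in fl/fl libraries and none fell. This was Eif4a2, an RNA helicase of the cap-binding complex, at 503, 460, 383 and 367 CPM with PTX, against 225, 150, 250 and 206 CPM with vehicle (log2 difference 1.04 ± 0.25, edgeR adjusted p = 0.0243). In CKO libraries 1 initiation factor gene, Eif2b5, rose (1.82 ± 0.45, edgeR adjusted p = 0.0439). Of 36 genes of ribosome assembly and RNA polymerase I, none was called in fl/fl and 1 rose in CKO, the polymerase I initiation factor Rrn3 (2.20 ± 0.57, edgeR adjusted p = 0.0495), while 27 and 24 of the 36 log2 differences were positive. Of 11 genes of the elongation list tested none was called. The most abundant, Eef2, had log2 differences of 0.37 ± 0.22 in fl/fl and 0.40 ± 0.22 in CKO, and Eef1a1 of -0.19 ± 0.21 and -0.02 ± 0.21. Of the subunit genes with other names, neither Gnb2l1 (Rack1) nor Fau was called. Gnb2l1, which shares 1.44% of its stretches, stood at 121 ± 26.2 CPM in PTX fl/fl and 142 ± 11.7 CPM in vehicle fl/fl libraries (SD, n = 4 each; log2 difference -0.22 ± 0.24).

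**Figure D4:**
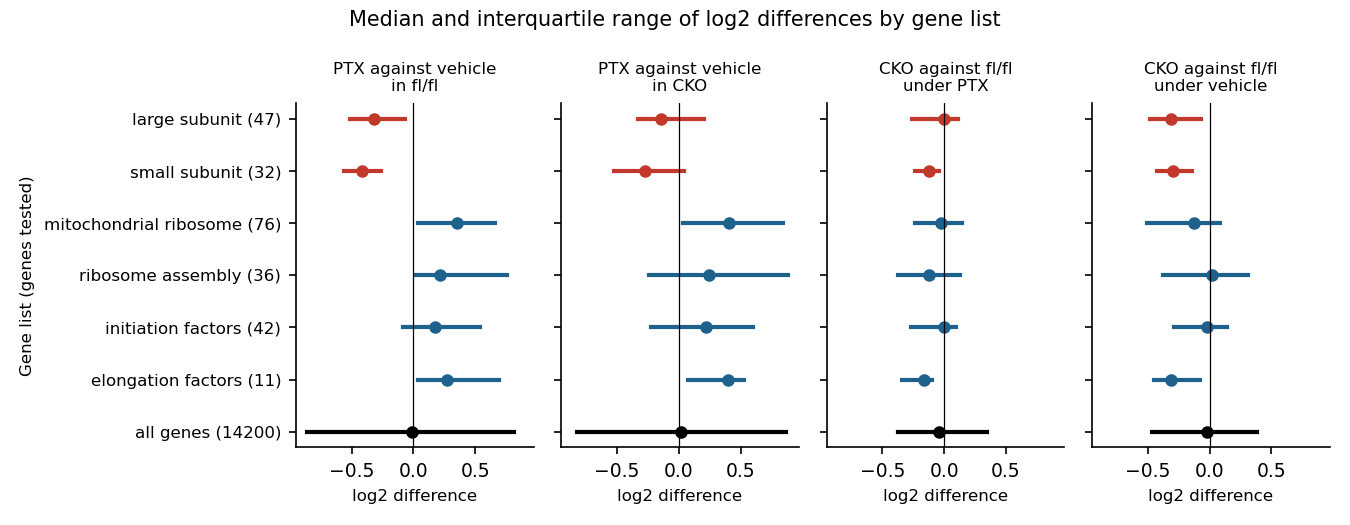
Median (points) and interquartile range (bars) of the log2 differences of 7 gene lists in 4 comparisons, with the number of genes tested beside each name. With PTX in fl/fl libraries the medians of the large and small subunit (red) are -0.31 and -0.42, that of the mitochondrial ribosome is 0.36 and that of all genes -0.01.

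The spread between replicates was narrow for these genes. Among genes of 10 to 30 CPM, the median SD of log2(CPM + 1) within groups was 0.313 for 20 ribosomal protein genes and 1.14 for 3807 others, and at 100 CPM or more it was 0.305 for 7 and 0.534 for 2025 others. These values are a description, without a test. The edgeR fit estimates a spread for each gene and draws it towards that of genes of a like level. The common biological coefficient of variation was 0.939.

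Promoters were examined for the pyrimidine run of ribosomal protein messages, in RefSeq sequences of GRCm38.p6 found for 63 of the 84 genes. A run of 8 or more C or T that overlapped the 10 bases on either side of a listed start site was present in 29 genes (46.0%), against 9 of 67 mitochondrial ribosomal protein genes (13.4%) and 15.8% of 27025 genes. The letters CTTTC stood within that window in 11 genes (17.5%), against 0 of the 67 and 2.91% of all genes, and on the other strand in 3.18%, 1.49% and 2.66%. The windows below, from 20 bases before to 25 bases from the start site onward, show the run in capitals for Rps9, Rpl13a and Rplp2, which are described above, and the short run of Rps3 for contrast (Rps9, chr7:3704021-3704065, plus strand; Rpl13a, chr7:45128721-45128765, minus strand; Rplp2, chr7:141447631-141447675, plus strand; Rps3, chr7:99483685-99483729, minus strand).
Rps9: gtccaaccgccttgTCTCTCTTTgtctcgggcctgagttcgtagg
Rpl13a: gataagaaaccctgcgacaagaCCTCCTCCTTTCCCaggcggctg
Rplp2: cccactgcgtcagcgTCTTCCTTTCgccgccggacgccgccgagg
Rps3: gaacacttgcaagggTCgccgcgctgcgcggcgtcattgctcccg
Such a run is a match of letters and not a measured control site, and these counts do not measure translation.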

How the data were processed

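Tracer-positive cells were sequenced as 50-base single reads of stranded poly(A) libraries, per the labels' protocols. Per the submitters' processing notes, bcl2fastq, TopHat2 and HTSeq were used with mm9; the annotation and strand setting are not given in the sources used here. The files hold unnormalized counts for each gene, as deposited. HTSeq's 5 summary rows stayed out of library sizes and tests. Members and lists were chosen with earlier results of these data known.

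After filterByExpr, 14200 genes were fitted in edgeR 4.0.16 (R 4.3.3; TMM factors, quasi-likelihood, robust, 4 groups, 12 residual degrees of freedom, Benjamini-Hochberg, threshold 0.05), a procedure tested on simulated data. Title dates had a fit of their own. CPM use the TMM-scaled total. Standard errors come from the log2 difference and its F statistic. Alternatives used limma 3.58.1 and DESeq2 1.42.0. Coding 50-base stretches of GENCODE vM21 were compared with all other genes' transcripts, exactly and, with bwa 0.7.19, within 2 mismatches. No pair of libraries of a group agreed within counting noise. Deviations of same-numbered libraries correlated at 0.429, 0.481, 0.468 and 0.233 between the genotypes under PTX. Same-numbered libraries there also share a title date, and the best match of a library did not always carry its own number. Pairing by number therefore cannot be told apart from date. Named genes were, per comparison, the 3 lowest p in a direction where none passed, the 6 most and least abundant members, related pairs, stalk and Mdm2-binding proteins, the extremes with PTX, and called or abundant members of other lists, of which the text gives a part. Results of a few genes are not reported here.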

Additional observations from a re-analysis of the deposited data

Results flagged for a closer look

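In 7 of 117 groups of 4 libraries tested, 1 library stood apart from the other 3 by Dixon's criterion. Chance alone gives about 1 in 20 for continuous, normally distributed values. A lone nonzero value beside values of 0 always passes, so that rate does not apply to the flags of Rpl3l and Rpl39l. Groups with all values equal were left out. In PTX fl/fl libraries, Rpl3l had 2.15 CPM in replicate 3 and 0 in the others, Rpl10 had 7.86 CPM in replicate 3 against 2.64 to 2.99 CPM in the others, and Rps27 had 3.05 CPM in replicate 4 against 1.33 to 1.58 CPM. In PTX CKO libraries, Rpl3l had 0.928 CPM in replicate 3 and 0 in the others. In vehicle CKO libraries, Rpl4 had 405 CPM in replicate 1 against 325 to 335 CPM in the others, Rplp2 had 21.8 CPM in replicate 4 against 27.9 to 29.0 CPM, and Rpl39l had 1.15 CPM in replicate 4 and 0 in the others.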

How the results depend on the processing

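Alternatives changed how many ribosomal protein genes were called in 3 of 7 comparisons. With PTX in fl/fl libraries 0 became 1 (Rplp0) with RLE scaling, with a filter of 5 CPM in 4 libraries, with title date as a term and with only the compared groups in the fit, 8 with limma-voom (7 lower, 1 higher) and 2 with DESeq2 (Rplp0, Rpl7). With PTX in CKO libraries 0 became 1 (Rps4y2) with total gene counts as the scale, with the 5 CPM filter and with title date as a term, and 2 with limma-voom and with DESeq2 (Rps4y2, Rps9). Leaving out each library in turn gave 0 to 1 in both. Limma-voom called 1 gene, Rpl3l, between PTX dates. The genotype comparisons, the interaction and the vehicle dates stayed at 0 in all alternatives run. The replicate block gave 0 called ribosomal protein genes in all 5 comparisons it was run for. The cause of these changes was not tested.

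Counts over all genes moved more. In the PTX comparisons the replicate block joined same-numbered PTX and vehicle libraries, which have different title dates and are not paired by any label. Their deviations correlated at -0.203 to -0.17 in fl/fl and at -0.0112 to 0.111 in CKO libraries. Leaving out the earlier PTX date kept only the later-date libraries of each PTX group, and so fewer libraries. With PTX in fl/fl, against 704 in the main analysis, there were 0 with the replicate block, 4 without the earlier PTX date, 1500 with title date as a term, 1517 with DESeq2 and 5283 with limma-voom. With PTX in CKO, against 366, there were 2 with the replicate block, 0 without the earlier PTX date, 159 with only the compared groups, 1798 with title date as a term, 1341 with DESeq2 and 2686 with limma-voom. Between PTX dates, against 1051, there were 1781 with DESeq2 and 3076 with limma-voom. DESeq2 called 10 and 83 genes between genotypes under PTX and vehicle (against 0 and 3), 50 in the interaction (against 1) and 307 between vehicle dates (against 7).

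The median log2 difference stayed negative with PTX in fl/fl in 28 alternatives (-0.49 to -0.26) and under vehicle between genotypes in 27 (-0.35 to -0.26). With PTX in CKO it ran from -0.34 to 0.04, above 0 with total gene counts and with limma-voom (0.01), where the medians of all genes were 0.22 and 0.29. Between vehicle dates it turned to 0.04 without vehicle CKO replicate 2. Rplp0 in fl/fl ran from -1.05 to -0.78 with adjusted p of 0.00278 to 0.370, and Rps4y2 in CKO from 1.40 to 1.86 with 0.00211 to 0.604. Of the genes under 10 CPM, none had a 95% interval within 1 log2 unit of 0 in any comparison.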
